A study of Mus musculus with 8 samples.

Results

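The genes of mitosis and the G2/M transition were followed in mouse tail-tip fibroblasts driven towards heart muscle. The list held 40 gene symbols; 38 of them were matched to 1 transcript cluster each on the array, out of 22206 transcript clusters and 19505 distinct symbols in all, and Ccnb1 and Foxm1 were not matched. The cells were postnatal tail-tip fibroblasts (TTFs), primary connective tissue cells from mouse tails, and every culture received retroviruses for the cardiac transcription factors Gata4, Hand2, Mef2c and Tbx5 (GHMT). Clariom S Mouse arrays measured total RNA, 1 array per culture, in 8 cultures from TTF set 1 and TTF set 2. Set 1 held GHMT alone, GHMT with diclofenac (a drug that blocks cyclooxygenase enzymes and so prostaglandin synthesis), GHMT with an antagonist of EP4 (a receptor for prostaglandin E2, PGE2), and GHMT with diclofenac and PGE2 together. Set 2 held GHMT alone, GHMT with the EP4 antagonist, GHMT with a TGFb inhibitor and GHMT with a Wnt inhibitor. The compound was added together with the viruses; the sources used here name neither the doses, the other compounds, the exact age of the mice nor the day of harvest. By its title, the study is about blocking cyclooxygenase-2, PGE2 and EP4 to enhance cardiac reprogramming. All cultures carried the factors, with no untransduced culture beside them.

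Cells that leave G2 switch on cyclin B-Cdk1, condense their chromosomes, attach them to a bipolar spindle through kinetochores, wait at the spindle checkpoint, and destroy the cyclins through the anaphase-promoting complex (APC/C) before cytokinesis divides the cell. The genes for these proteins are transcribed together late in the cycle and kept silent in resting cells, so their mRNA is widely read as a measure of how much a culture divides. Heart muscle cells of adult mammals divide rarely, whereas fibroblasts in serum divide readily. In these bulk samples, fewer dividing cells and less mitotic RNA per dividing cell cannot be told apart.

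All values are on the authors' log2 scale, where a difference of 1 is 2-fold. They are given in a fixed order of arrays: GHMT, diclofenac, EP4 antagonist and diclofenac plus PGE2 for set 1, then GHMT, EP4 antagonist, TGFb inhibitor and Wnt inhibitor for set 2. Levels of different genes are not comparable on an array, so only differences within a gene are read. Each array's background level, taken at percentile 95 over 23 background probe sets, was 5.73 to 5.99; 31 of the 38 measured members lay above it in all 8 arrays, 6 in some arrays and 1, Cenpf, in none. GHMT and the EP4 antagonist have 2 arrays each and the other treatments 1 each, which limits the precision. A difference of 1 array from 1 has no replicate check and is called here when it reaches 2-fold.

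The clearest difference lay in set 2. With the TGFb inhibitor, 37 of 38 members were lower than with GHMT alone (50.4% of all transcript clusters were lower) and 20 of them by 2-fold or more, against 2.52% of all transcript clusters and 4.36% of those above background. With the Wnt inhibitor, 37 of 38 were lower (51.2% of all clusters) and 11 by 2-fold or more, against 1.57% of all clusters and 2.41% of those above background. The median member difference was -1.05 in the former contrast and -0.82 in the latter, beside medians of -0.03 and -0.05 over the clusters above background. Both contrasts share the GHMT array of set 2. Without Cenpf, at background throughout, 36 of 37 members were lower in each. The EP4 antagonist array of set 2 shared that control too, yet 21 members were lower in it (50.1% of all clusters) and 17 higher (48.7%), with a median of -0.04; 1 member, Top2a, was lower by 2-fold or more there (1.45% of all clusters). The TGFb inhibitor array was the lowest of its set for 25 members (26.2% of the clusters above background) and the Wnt inhibitor array for 11 (27.5%), which left 1 member each to GHMT and the EP4 antagonist. Where the lower array lay at background the fold is a lower bound; of the members counted as 2-fold lower, Ncapg with the Wnt inhibitor had a bound of 1.70-fold.

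**Figure D1:**
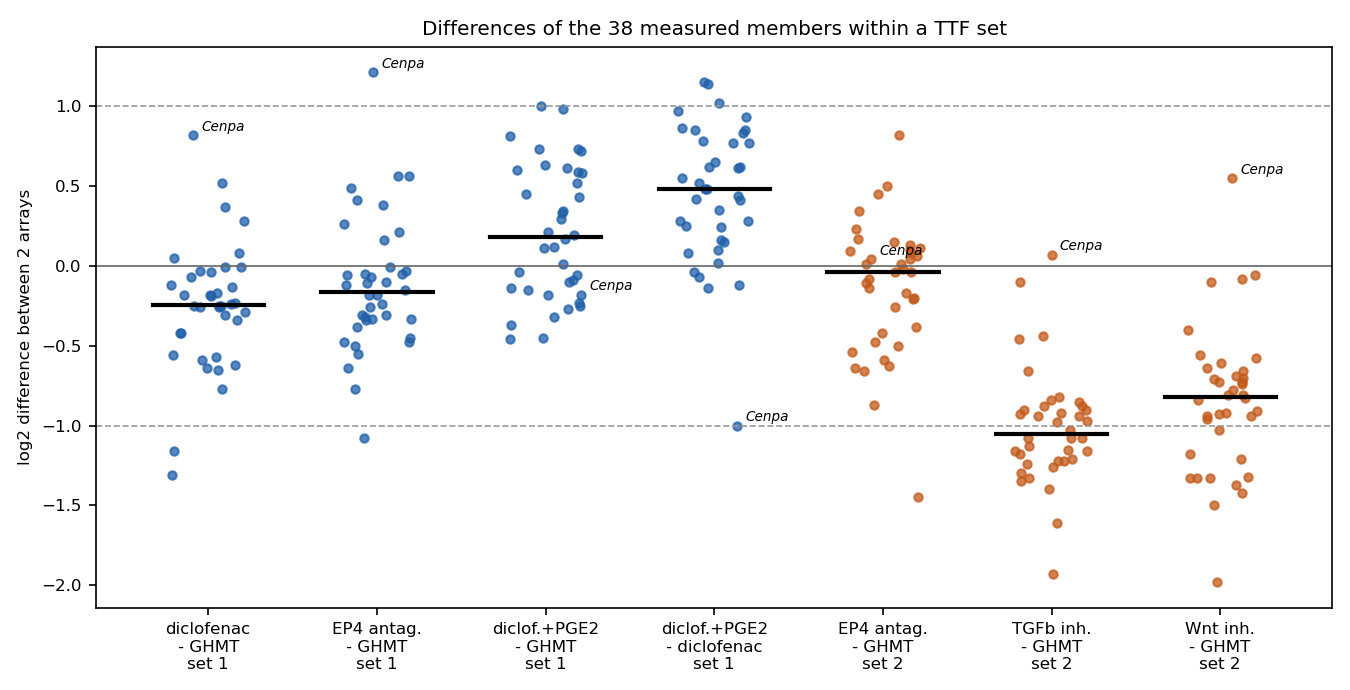
Each point is 1 of the 38 measured members; the vertical axis is the log2 difference between 2 arrays of the same TTF set, the black bar is the median, and dashed lines mark 2-fold. The TGFb and Wnt inhibitor columns sit almost wholly below 0, with medians near -1.05 and -0.82, while the EP4 antagonist column of set 2 straddles 0; Cenpa, labelled, lies apart from the other members in most columns.

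The differences in set 1 were smaller. Diclofenac left 32 of 38 members lower than GHMT (50.9% of all clusters), with a median of -0.24, but only Bub1 and Bub1b by 2-fold or more (0.766% of all clusters). With PGE2 added to diclofenac, 33 of 38 members were higher than with diclofenac alone (50.3% of all clusters), with a median of 0.48. The measured differences of Ncaph, Ttk and Cenpe reached 2-fold (0.847%). Ttk lay at background with diclofenac, however, so its fold has a lower bound of only 1.86. Against GHMT, diclofenac plus PGE2 was higher for 23 members (48.7% of all clusters), with a median of 0.18, and 1 member, Ube2c, was 2-fold higher (0.892%). These contrasts share arrays, so their signs are not independent of each other. The sign counts include members at background in both arrays, Cdc25c and Cenpf throughout set 1 and Incenp with diclofenac against GHMT. Without them 30 of 35 members were lower with diclofenac, 31 of 36 were higher with PGE2 added, and 22 of 36 were higher with diclofenac plus PGE2 than with GHMT. The diclofenac array was the lowest of set 1 for 20 members, beside 22.1% of the clusters above background, and the diclofenac plus PGE2 array was the highest for 22, beside 30.3%. With the EP4 antagonist in set 1, 29 members were lower (50.9% of all clusters), with a median of -0.17; Bub1b was lower by 2-fold or more (0.784% of all clusters) and Cenpa was higher by that much (0.815%).

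Markers of cell types were read beside these results. All 11 measured fibroblast markers lay above background in every array, with mean log2 levels of 14.92, 14.29, 14.23 and 14.63 in set 1 and 14.44, 14.24, 13.83 and 14.53 in set 2. All 11 were lower than GHMT with diclofenac (median -0.76, 2 by 2-fold or more) and with the EP4 antagonist of set 1 (median -0.72, 4 by 2-fold or more), which is further than the members' medians of -0.24 and -0.17. With the EP4 antagonist of set 2, in contrast, 6 were lower and 5 higher than with GHMT (median -0.05, 2 lower by 2-fold or more). With diclofenac plus PGE2, 8 of the 11 were higher than with diclofenac (median 0.38). With the TGFb inhibitor the fibroblast markers went both ways, 5 lower and 3 higher by 2-fold or more (median -0.22). With the Wnt inhibitor 0 were lower and 2 higher by that much (median 0.13). Of all 22206 clusters, 0.766% were lower by 2-fold or more with diclofenac. The share was 0.784% with the EP4 antagonist of set 1 and 1.45% with that of set 2. It was 2.52% with the TGFb inhibitor and 1.57% with the Wnt inhibitor, where 630 and 561 clusters were higher by that much. Of 10 cardiomyocyte markers, 6 lay above background with GHMT in set 2 and 7 in every other array, while Tnni3, Myl2 and Pln lay at background in all 8; their mean log2 level was 9.19, 10.27, 9.97 and 8.90 in set 1 and 8.53, 9.68, 9.99 and 10.02 in set 2. In set 1 the mean over all 10 was thus highest with diclofenac, which had the lowest value of 20 members. It was lowest with diclofenac plus PGE2, which had the highest of 22. Not every marker followed the mean. Against GHMT, 9 were higher (47.9% of all clusters) and 1 lower with diclofenac (-1.4 to 3.33). With diclofenac plus PGE2, 7 were lower and 3 higher (48.7% of all clusters) than with GHMT (-1.05 to 1.4). These counts include Tnni3, Myl2 and Pln, whose signs cannot be read at background. In set 2 the mean was lowest with GHMT, which had the highest value of 21 members. With the EP4 antagonist of set 2, however, the cardiomyocyte markers were at 9.68 against 8.53 with GHMT, while the members' median difference was -0.04. The part of cell composition in the members' differences was not tested. None of 9 leukocyte, 7 endothelial or 7 keratinocyte markers lay above background in any array, and 2 of 6 skeletal muscle markers, Ckm and Acta1, did in all while Myod1, Myog, Pax7 and Myh3 did in none.

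The promoters of these genes carry sequence elements that tie them to the late cell cycle. The CHR element (letters TTTGAA) is bound by the MuvB proteins, which sit in the repressing DREAM complex in resting cells and work with B-Myb and Foxm1 in G2, and the CCAAT box is bound by NF-Y. RefSeq promoters of build GRCm38.p6, from 250 bases before to 50 after the annotated start, were at hand for 32 of the 40 members. TTTGAA stood on either strand in 24 of the 32 (75.0%), against 20.2% of 27025 genes; CCAAT stood on either strand in 25 (78.1%), against 41.1%; and 21 (65.6%) held both, against 7.97%. Within 50 bases of the start, 24 of 34 member promoters (some genes have more than 1) held TTTGAA, which is 70.6% against 4.94% of 32851 promoters. A match is a description of letters and not a mapped site. The 120 bases just before the start follow for members whose values are described further on, 5′ to 3′ on the gene's strand, with TTTGAA or its reverse complement TTCAAA and CCAAT or its reverse complement ATTGG in capitals. Nuf2 is shown as a member that holds neither.
Ube2c, chr2:164769809-164769928, plus strand: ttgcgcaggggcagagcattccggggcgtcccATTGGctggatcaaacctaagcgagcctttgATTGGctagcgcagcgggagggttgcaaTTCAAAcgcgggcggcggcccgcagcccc
Cdk1, chr10:69352913-69353032, minus strand: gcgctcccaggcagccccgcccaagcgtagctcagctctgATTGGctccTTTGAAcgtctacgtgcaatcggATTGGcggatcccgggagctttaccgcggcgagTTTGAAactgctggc
Cdc20, chr4:118437344-118437463, minus strand: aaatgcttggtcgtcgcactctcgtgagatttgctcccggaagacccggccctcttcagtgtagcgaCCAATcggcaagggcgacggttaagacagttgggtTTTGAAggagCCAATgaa
Top2a, chr11:99024190-99024309, minus strand: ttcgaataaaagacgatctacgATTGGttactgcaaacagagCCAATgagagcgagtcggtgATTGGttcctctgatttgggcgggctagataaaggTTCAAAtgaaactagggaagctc
Kif11, chr19:37376262-37376381, plus strand: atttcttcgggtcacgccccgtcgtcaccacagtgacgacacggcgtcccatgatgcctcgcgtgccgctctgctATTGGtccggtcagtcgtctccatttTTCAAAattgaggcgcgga
Prc1, chr7:80294356-80294475, plus strand: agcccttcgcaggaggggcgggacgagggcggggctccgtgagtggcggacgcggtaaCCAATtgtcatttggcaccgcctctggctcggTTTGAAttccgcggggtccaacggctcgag
Nuf2, chr1:169531465-169531584, minus strand: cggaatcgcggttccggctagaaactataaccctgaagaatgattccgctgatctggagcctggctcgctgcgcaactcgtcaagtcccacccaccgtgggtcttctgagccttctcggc
In Ube2c, TTCAAA began 29 bases before the start, with ATTGG at 57 and 88 bases. Cdk1 held TTTGAA at 15 and 71 bases before the start and ATTGG at 48 and 80. Cdc20 had TTTGAA at 18 bases, and Kif11 had TTCAAA at 19. Members with and without the letters gave similar medians: the median with the TGFb inhibitor was -1.08 over 24 measured members with TTTGAA and -1.15 over 7 without, and the Wnt inhibitor gave -0.82 and -0.94. Nuf2, with neither, differed by -1.15 with the TGFb inhibitor, and Cdk1 by -1.16.

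**Figure D2:**
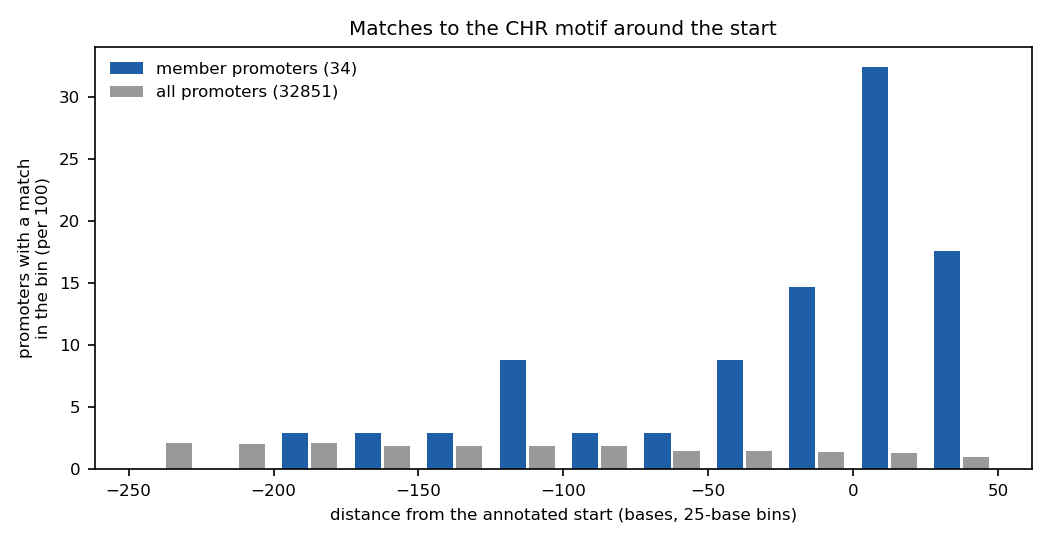
Share of promoters (per 100) with TTTGAA on either strand in each 25-base bin, plotted against distance from the annotated start, for 34 promoters of the members (blue) and all 32851 promoters (grey). The members' matches gather around the start, with 32.4 per 100 in the bin from 0 to 25 bases after it against 1.31 per 100 for all promoters.

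The cyclin-CDK core drives entry into mitosis. Ccna2, the cyclin of S phase and G2, was at 9.22, 9.30, 9.17 and 9.85 in set 1 and at 10.37, 9.73, 8.76 and 8.95 in set 2. Ccnb2, a B-type cyclin, was at 8.66, 8.42, 8.82 and 8.83 in set 1 and at 9.38, 9.0, 8.22 and 8.77 in set 2. Cdk1, the kinase they switch on, was at 7.46, 6.89, 7.28 and 7.67 in set 1 and at 8.26, 8.39, 7.10 and 6.93 in set 2. In all 3, the TGFb and Wnt inhibitor arrays were the lowest pair of set 2. Ccna2 was 3.05-fold lower with the TGFb inhibitor and 2.68-fold lower with the Wnt inhibitor, and Cdk1 2.23-fold and 2.51-fold lower. With diclofenac plus PGE2, Ccnb2, Ccna2 and Cdk1 were higher than with diclofenac alone, by 0.41 to 0.78. Cdc25c, the phosphatase that removes inhibitory phosphates from Cdk1, was at 4.99, 4.95, 5.40 and 5.72 in set 1 and at 6.09, 5.22, 5.12 and 5.25 in set 2. It passed the background level only with GHMT in set 2, so its set 1 differences have no readable direction and its contrasts in set 2 are lower bounds (at least 1.09-fold lower with the TGFb inhibitor and 1.12-fold with the Wnt inhibitor).

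Among the mitotic kinases and checkpoint proteins, all 9 members were lower with either inhibitor in set 2, 5 of them by 2-fold or more with the TGFb inhibitor and 3 with the Wnt inhibitor. Plk1, the polo-like kinase of mitotic entry and centrosome maturation, was at 11.00, 10.93, 10.66 and 11.58 in set 1 and at 11.13, 11.28, 9.20 and 10.19 in set 2. Its TGFb inhibitor array stood lowest of all 8, 3.81-fold below GHMT, the largest difference of any member in that contrast; the Wnt inhibitor array was 1.92-fold below. Bub1b, which encodes the checkpoint protein BubR1, was at 8.61, 7.30, 7.53 and 8.16 in set 1 and at 8.58, 8.08, 7.23 and 6.60 in set 2. It was lower than GHMT in every treated array of its set, and its Wnt inhibitor value was the lowest of the 8, 3.94-fold below GHMT. Bub1, a kinetochore kinase of the same checkpoint, was at 7.55, 6.39, 7.31 and 7.32 in set 1 and at 9.12, 9.01, 7.86 and 8.43 in set 2. The diclofenac array was 2.23-fold below GHMT, whereas the EP4 antagonist and diclofenac plus PGE2 arrays differed from it by -0.24 and -0.23. Ttk, the checkpoint kinase Mps1, was at 6.17, 5.75, 5.69 and 6.89 in set 1 and at 6.09, 6.43, 5.65 and 5.26 in set 2. The diclofenac and EP4 antagonist arrays of set 1 and both inhibitor arrays of set 2 lay at background, and it was at least 1.86-fold higher with diclofenac plus PGE2 than with diclofenac.

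The chromosomal passenger complex holds Aurora B with its partners Incenp and survivin. Aurkb was at 8.64, 8.51, 8.52 and 8.93 in set 1 and at 8.86, 8.44, 7.92 and 7.83 in set 2. Birc5, the survivin gene, was at 6.87, 6.64, 7.43 and 7.47 in set 1 and at 7.59, 7.57, 6.37 and 6.26 in set 2. Birc5 was 2.33-fold lower with the TGFb inhibitor and 2.51-fold lower with the Wnt inhibitor, and the EP4 antagonist array of set 2 differed from GHMT by -0.02. Incenp was at 5.43, 5.80, 5.99 and 6.41 in set 1 and at 6.19, 6.36, 5.26 and 5.55 in set 2. Its values hovered around background, and the highest in set 1 was with diclofenac plus PGE2. Aurka, the Aurora kinase of centrosomes and spindle poles, was at 6.31, 6.30, 6.21 and 6.65 in set 1 and at 7.67, 8.12, 6.45 and 6.86 in set 2. Nek2, a kinase that separates centrosomes, was at 6.85, 6.60, 6.59 and 7.04 in set 1 and at 6.72, 6.80, 6.26 and 6.62 in set 2. The largest difference of Nek2 from GHMT was -0.46, with the TGFb inhibitor.

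The APC/C group had 2 members. Cdc20, its activator in metaphase, was at 6.65, 6.64, 6.62 and 7.26 in set 1 and at 7.68, 7.77, 6.47 and 6.76 in set 2. Ube2c is the ubiquitin-conjugating enzyme that works with the APC/C. It was at 9.0, 9.52, 8.89 and 10.00 in set 1 and at 10.45, 10.68, 9.37 and 9.08 in set 2. Both were higher with diclofenac plus PGE2 than in any other array of set 1, by 1.00 over GHMT for Ube2c and by 0.61 for Cdc20. Both were also lower with the 2 inhibitors of set 2: Cdc20 by 2.31-fold and 1.89-fold, and Ube2c by 2.11-fold and 2.58-fold. For Cdc20 the GHMT, diclofenac and EP4 antagonist arrays of set 1 were nearly equal.

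At the kinetochore, the NDC80 complex grips the microtubules. Its genes Ndc80, Nuf2 and Spc25 were all lower with both inhibitors. Ndc80 was at 6.62, 6.45, 6.56 and 6.73 in set 1 and at 7.08, 6.82, 5.78 and 6.17 in set 2. Nuf2 was at 9.35, 9.10, 8.58 and 9.25 in set 1 and at 9.37, 9.20, 8.22 and 8.41 in set 2. Spc25 was at 6.90, 6.87, 7.28 and 7.35 in set 1 and at 7.29, 7.35, 6.41 and 6.08 in set 2. The Ndc80 value with the TGFb inhibitor was at background, so the difference is at least 2.17-fold; Nuf2 was 2.22-fold lower there. Cenpe, the kinetochore kinesin, was at 9.86, 9.27, 10.07 and 10.29 in set 1 and at 9.91, 10.02, 8.88 and 8.97 in set 2. It was lowest with diclofenac in set 1 and 2.03-fold higher when PGE2 was added. Cenpf, a large kinetochore protein, was at 5.07, 4.51, 4.69 and 5.03 in set 1 and at 4.84, 4.76, 4.18 and 4.44 in set 2, below background in every array, so no fold is given.

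Cenpa went its own way. It encodes the histone H3 variant that marks centromeres and was at 10.58, 11.40, 11.79 and 10.40 in set 1 and at 10.91, 10.95, 10.98 and 11.46 in set 2. It was the 1 member not lower with either inhibitor of set 2. In set 1 it was 1.77-fold higher with diclofenac and 2.31-fold higher with the EP4 antagonist than with GHMT, and 2.00-fold lower with diclofenac plus PGE2 than with diclofenac. Within each set its GHMT array was among the low ones. Its promoter was among the 24 with TTTGAA.

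Spindle genes came next, and all 7 were lower with both inhibitors of set 2, with medians of -0.90 (TGFb) and -0.71 (Wnt). Kif11, the kinesin that pushes spindle poles apart, was at 9.21, 9.26, 8.66 and 9.22 in set 1 and at 9.78, 9.64, 8.65 and 9.72 in set 2. It was 2.19-fold lower with the TGFb inhibitor, but differed by -0.06 with the Wnt inhibitor. Tpx2, which activates Aurora A on the spindle, was at 8.21, 8.49, 8.20 and 8.73 in set 1 and at 9.51, 9.52, 8.11 and 8.80 in set 2. Hmmr, a spindle pole protein, was at 7.96, 7.70, 7.32 and 8.55 in set 1 and at 8.61, 8.57, 7.71 and 7.87 in set 2. Tpx2 was 2.64-fold lower with the TGFb inhibitor. Dlgap5, which stabilises kinetochore fibres, was at 8.51, 8.09, 8.20 and 8.37 in set 1 and at 8.17, 8.99, 8.07 and 8.09 in set 2; it differed from GHMT by -0.10 and -0.08 with the inhibitors, and its highest value was with the EP4 antagonist in set 2. Kif2c, a kinesin that takes microtubules apart, was at 9.13, 8.51, 8.81 and 8.67 in set 1 and at 8.94, 8.90, 8.04 and 8.28 in set 2. It was highest with GHMT in each set. Kif4, a chromosome-bound kinesin, and Nusap1, a microtubule-binding protein, were 2.27-fold and 1.80-fold lower with the TGFb inhibitor. Over the 8 arrays Kif4 ranged from 7.83 to 9.01 and Nusap1 from 7.26 to 8.38.

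**Figure D3:**
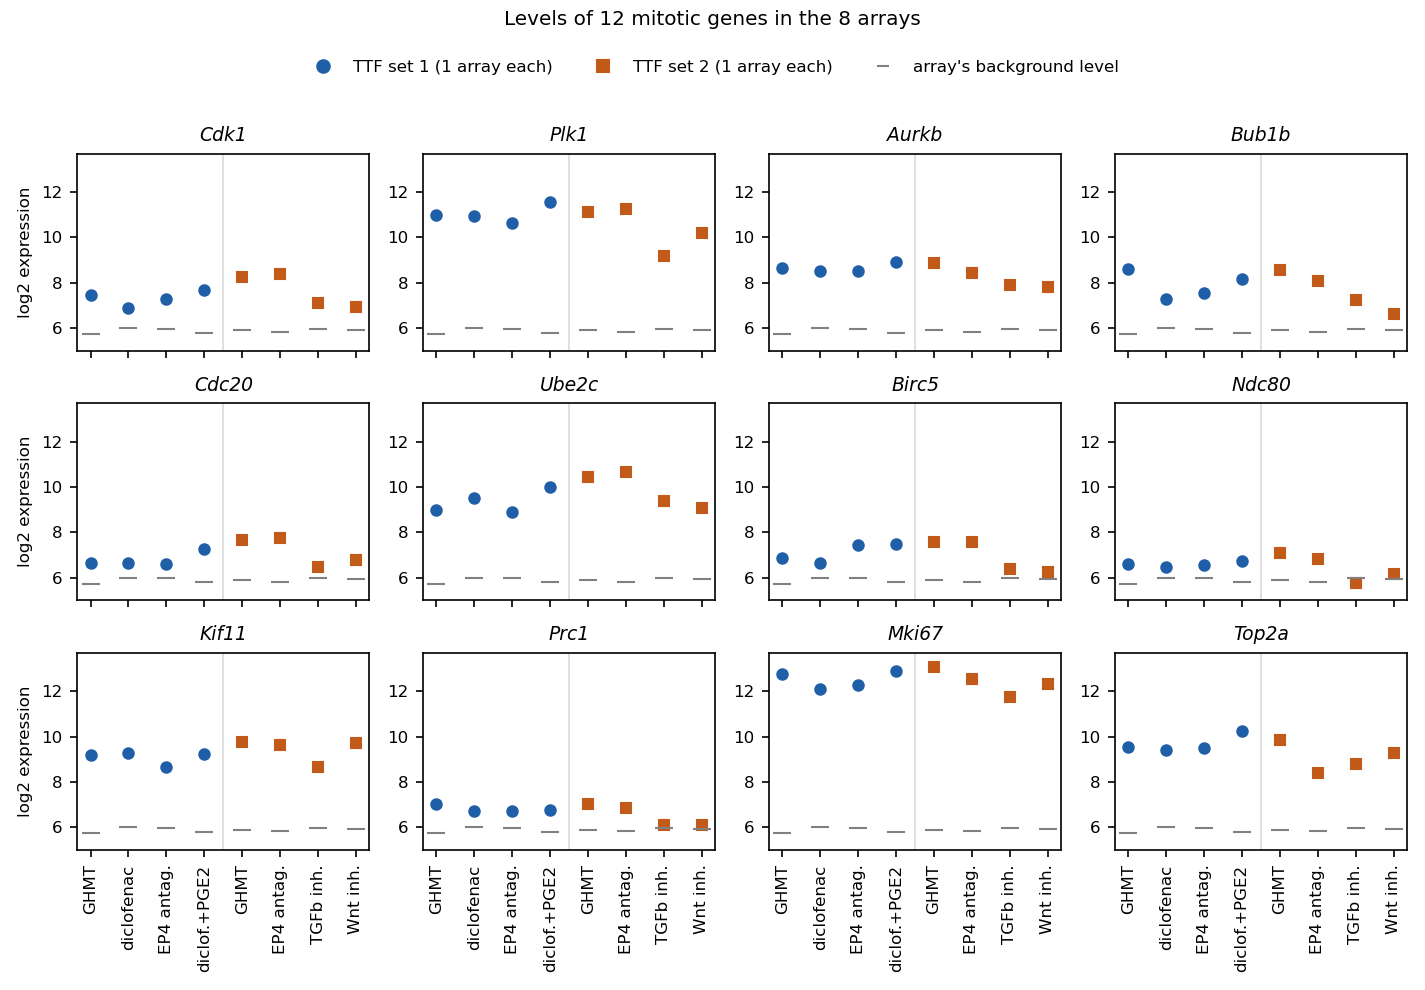
Log2 expression of 12 members in each of the 8 arrays, 1 point per array, for TTF set 1 (circles) and TTF set 2 (squares); the short grey lines are each array's background level. In set 2 the TGFb and Wnt inhibitor points lie below the GHMT and EP4 antagonist points for most genes, with Kif11 (Wnt inhibitor at 9.72) and Top2a (EP4 antagonist at 8.41) as exceptions.

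All 6 cytokinesis genes were lower with the TGFb inhibitor, with differences of -1.08 to -0.82. Prc1, which bundles the microtubules of the central spindle, was at 7.01, 6.72, 6.70 and 6.74 in set 1 and at 7.03, 6.83, 6.09 and 6.10 in set 2. Kif23 and Racgap1 encode centralspindlin; Kif23 was at 10.83, 10.65, 11.09 and 10.58 in set 1 and at 10.81, 10.91, 9.99 and 10.08 in set 2. Kif20a, the kinesin that brings Aurora B to the central spindle, was at 9.68, 9.37, 9.53 and 9.62 in set 1 and at 10.17, 10.18, 9.19 and 9.47 in set 2. In set 1 all 6 members, Kif20a, Kif23, Prc1, Anln, Ect2 and Racgap1, were lower than GHMT with diclofenac (50.9% of all clusters). They were also lower with diclofenac plus PGE2, with differences of -0.37 to -0.06. In that contrast the 3 members of the cyclin-CDK group above background and all 4 of the chromosome group were higher (48.7% of all clusters). So were both APC/C members and 7 of 9 kinase and checkpoint members. The spindle and kinetochore groups were mixed: 4 of 7 spindle genes were lower, as were 2 of 5 kinetochore genes above background. Whether the groups differ was not tested, since each contrast is 1 array against 1. With PGE2 added to diclofenac the cytokinesis median was 0.05, beside 0.55 for these 3 cyclin-CDK genes and 0.91 for the chromosome group. The median was 0.16 for the spindle group and 0.28 for the 5 kinetochore genes above background. It was 0.55 for the APC/C group and 0.65 for the kinase and checkpoint group. Anln, the scaffold of the contractile ring, was 2.5-fold lower with the Wnt inhibitor, and Ect2, which activates RhoA at the cell equator, was 2.27-fold lower. Their values ranged from 6.24 to 7.60 and from 7.51 to 9.08 over the 8 arrays, and those of Racgap1 from 8.85 to 9.77.

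The chromosome group consists of Mki67, Top2a and the condensin I genes Ncapg and Ncaph. Mki67, the proliferation marker that coats mitotic chromosomes, was at 12.77, 12.12, 12.29 and 12.89 in set 1 and at 13.09, 12.55, 11.76 and 12.31 in set 2. Its value was lowest with the TGFb inhibitor, 2.51-fold below GHMT, and in each set it was lower with the EP4 antagonist than with GHMT. Top2a, the topoisomerase that untangles sister chromatids, was at 9.53, 9.41, 9.48 and 10.26 in set 1 and at 9.86, 8.41, 8.78 and 9.28 in set 2. The lowest of its values in set 2 was with the EP4 antagonist, 2.73-fold below GHMT. Ncaph was at 6.98, 6.64, 6.91 and 7.79 in set 1 and at 7.39, 6.76, 6.15 and 5.89 in set 2. It was 2.22-fold higher with diclofenac plus PGE2 than with diclofenac, and at least 2.75-fold lower with the Wnt inhibitor than with GHMT, where it lay at background. Ncapg, at 5.36 to 7.19 over the 8 arrays, was 1.96-fold higher when PGE2 was added to diclofenac.

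**Figure D4:**
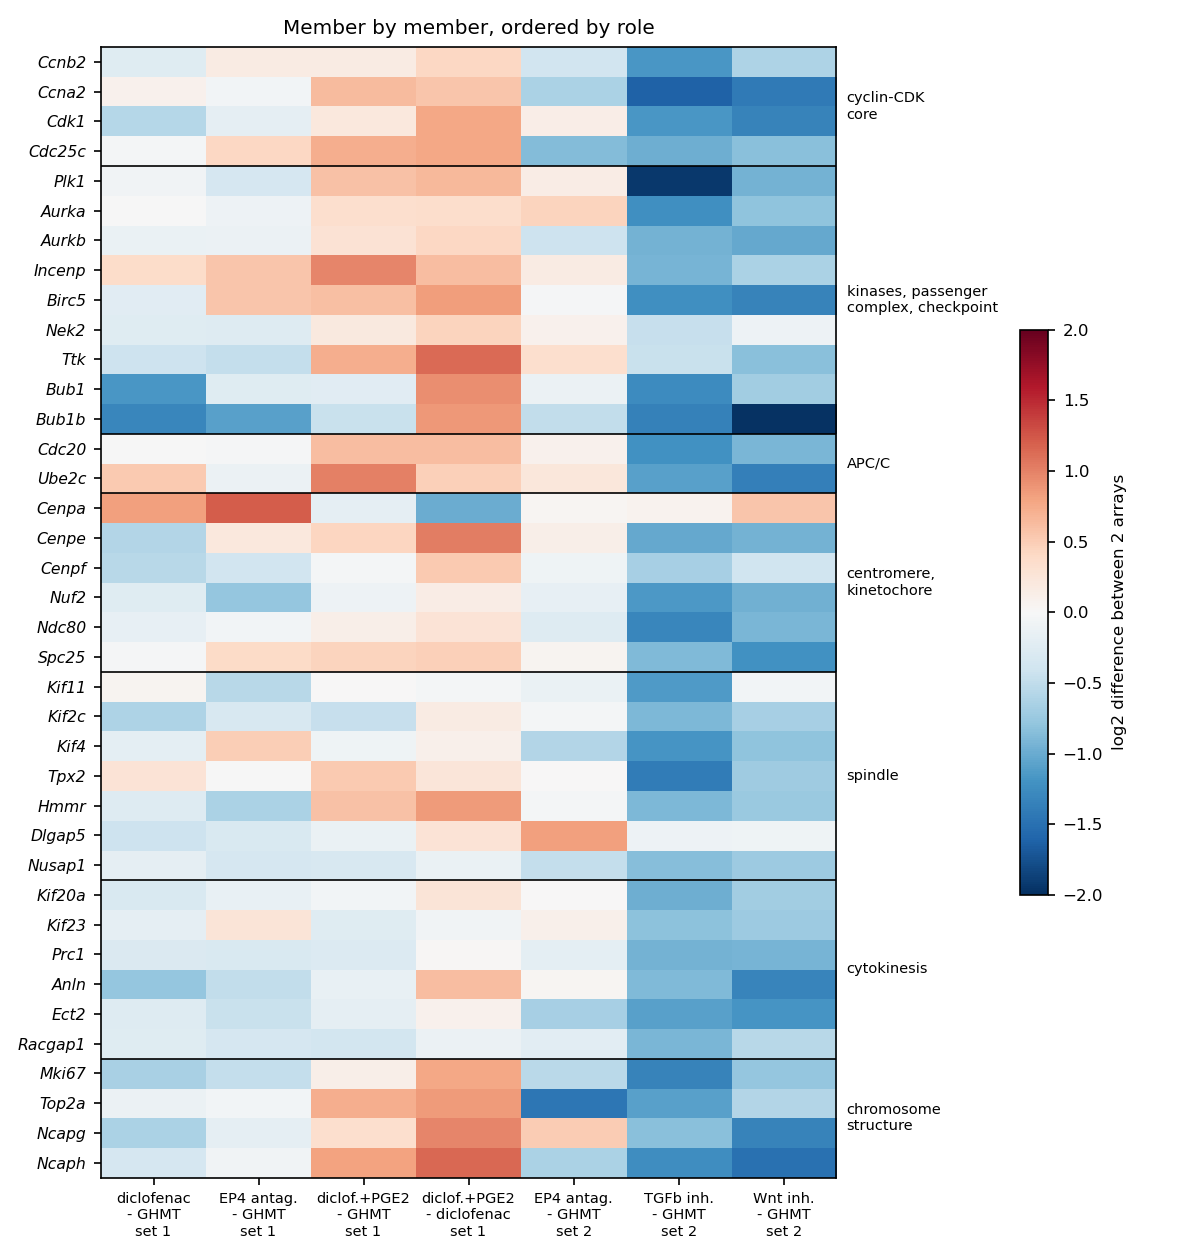
Colour gives the log2 difference between 2 arrays of the same TTF set for each of the 38 members (rows, grouped by role) and each contrast (columns); blue is lower and red is higher in the first-named array. The TGFb and Wnt inhibitor columns are blue in every row except Cenpa, and the column of diclofenac plus PGE2 against diclofenac is mostly red, except for Cenpa at -1.0 and several cytokinesis and spindle genes near 0.

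Replicated tests were possible for the EP4 antagonist against GHMT (2 arrays each, 1 per set) with limma and the TTF set as a block. No member passed at an adjusted p under 0.05 over all clusters, and 0 of 22206 clusters passed (0.0%). At an unadjusted p under 0.05, 3 members were lower (2.91% of all clusters were) and 0 higher (2.68%). Bub1b differed by -0.79 ± 0.23 (SE), lower in both sets (limma, adjusted p = 0.793). Mki67 differed by -0.51 ± 0.20 and Ect2 by -0.56 ± 0.20, each lower in both sets, with adjusted p of 0.876 and 0.866 in limma. The median member difference was -0.14, with 26 members lower (51.0% of all clusters), and 17 members were lower in both sets, against 26.2% of all clusters. The largest differences otherwise were Top2a at -0.75 ± 0.35 and Cenpa at 0.62 ± 0.31, each resting on 1 set. Top2a differed by -0.05 in set 1 and -1.45 in set 2, and Cenpa by 1.21 and 0.04. The smallest were Tpx2 at 0.00 ± 0.20, Cdk1 at -0.03 ± 0.21 and Cdc20 at 0.03 ± 0.20.

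The wider comparison had 3 arrays an arm: the inhibited arm pooled both EP4 antagonist arrays and the diclofenac array, and the active arm pooled the diclofenac plus PGE2 array and both GHMT arrays. The arms pool different treatments, so their spread holds treatment differences as well, and they share arrays with the contrasts already given. Mki67 had a mean of 12.32 ± 0.22 (SD, n = 3) in the inhibited arm and 12.92 ± 0.16 in the active arm, and Bub1b 7.64 ± 0.40 and 8.45 ± 0.25. With the set as a block, Bub1b differed by -0.81 ± 0.18 (SE, limma, adjusted p = 0.139), Mki67 by -0.60 ± 0.15 (adjusted p = 0.192) and Top2a by -0.78 ± 0.25 (adjusted p = 0.332). No member passed the adjusted threshold, where 0.122% of all clusters passed as lower and 0.257% as higher. Unadjusted p under 0.05 held for 6 members as lower (Bub1b, Mki67, Top2a, Ncaph, Ect2 and Hmmr; 4.41% of all clusters) and for Cenpa as higher (4.26%), which differed by 0.75 ± 0.23 with an adjusted p of 0.315 in limma. In all, 33 members were lower (51.5% of all clusters) and the median was -0.22. Aurka, Spc25 and Incenp differed least, by 0.00 ± 0.19, -0.01 ± 0.18 and 0.04 ± 0.24. Without the block, or with the GHMT or EP4 antagonist array of set 2 left out, 0 of all clusters passed; without the GHMT array of set 1, Top2a alone among the members passed as lower, by -1.09 (limma, adjusted p = 0.0422).

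TTF set 2 was compared with set 1 over the GHMT and EP4 antagonist arrays, with the treatment as a term. In limma, 7 members rose in set 2 and 0 fell (7.8% of all clusters fell): Bub1 by 1.64 ± 0.20 (SE, adjusted p = 0.0147), Aurka by 1.64 ± 0.23 (0.0187), Ube2c by 1.62 ± 0.21, Tpx2 by 1.31 ± 0.20, Cdc20 by 1.09 ± 0.20, Cdk1 by 0.95 ± 0.21 and Hmmr by 0.95 ± 0.23 (0.0476). That is 18.4% of the members, beside 7.45% of all clusters and 14.6% of those above background, so the share lies near that of expressed clusters. In simulated data this fit made more false calls than its threshold states, so the 7 calls are less firm than their adjusted p. Nek2 (0.04), Kif2c (-0.05) and Cenpe (0.00) differed least. The scaling bears on this comparison: the median over all clusters was -0.18, and quantile normalization moved it to -0.01 and the members' median from 0.33 to 0.14, with 6 members higher (Hmmr no longer) and 1 lower.

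Genes of neighbouring phases were read from lists. Over all transcript clusters, 50.4% were lower with the TGFb inhibitor and 51.2% with the Wnt inhibitor, 2.52% and 1.57% by 2-fold or more. Of 48 other mitotic and G2/M genes measured, 48 were lower with the TGFb inhibitor, 12 of them by 2-fold or more. With the Wnt inhibitor 44 were lower, 5 by 2-fold or more. The medians were -0.74 and -0.48. Counts and medians include genes at background in both arrays. Of the 48, 36 and 37 lay above background in at least 1 array. Cdca3, a mitotic entry factor, differed by -1.52 and -1.70, and Sgo2a, a shugoshin that guards centromeric cohesion, by -1.57 and -1.41. Of 36 replication and S phase genes, 33 were lower with each inhibitor, with medians of -0.51 and -0.55. In each contrast 27 of the 36 lay above background in at least 1 array. Rrm1, a subunit of ribonucleotide reductase, differed by -1.18 with both. Of 13 regulators of G1 and S entry 11 were lower with each, with medians of -0.34 and -0.50, and Skp2, a ubiquitin ligase subunit that degrades p27, differed by -1.84 with the TGFb inhibitor. A further list held 25 measured genes of mitotic machinery, mainly APC/C core subunits and cohesin genes, which are present also outside mitosis. It also held the checkpoint genes Bub3 and Mad1l1 and the regulators of mitotic entry Wee1, Pkmyt1, Cdc25a and Cdc25b. Of the 25, 19 and 17 were lower and 0 by 2-fold, with medians of -0.34 and -0.26. The members' own medians were lower than those of these 4 lists with both inhibitors. The lists also differ in how many genes lay above background, which 37 of the 38 members did with each inhibitor. The difference between lists was not tested. In set 1, 31 of the other mitotic genes were lower with diclofenac (50.9% of all clusters), with a median of -0.15. When PGE2 was added, 31 were higher (50.3% of all clusters), with a median of 0.18. For these contrasts 38 of the 48 lay above background in at least 1 array.

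**Figure D5:**
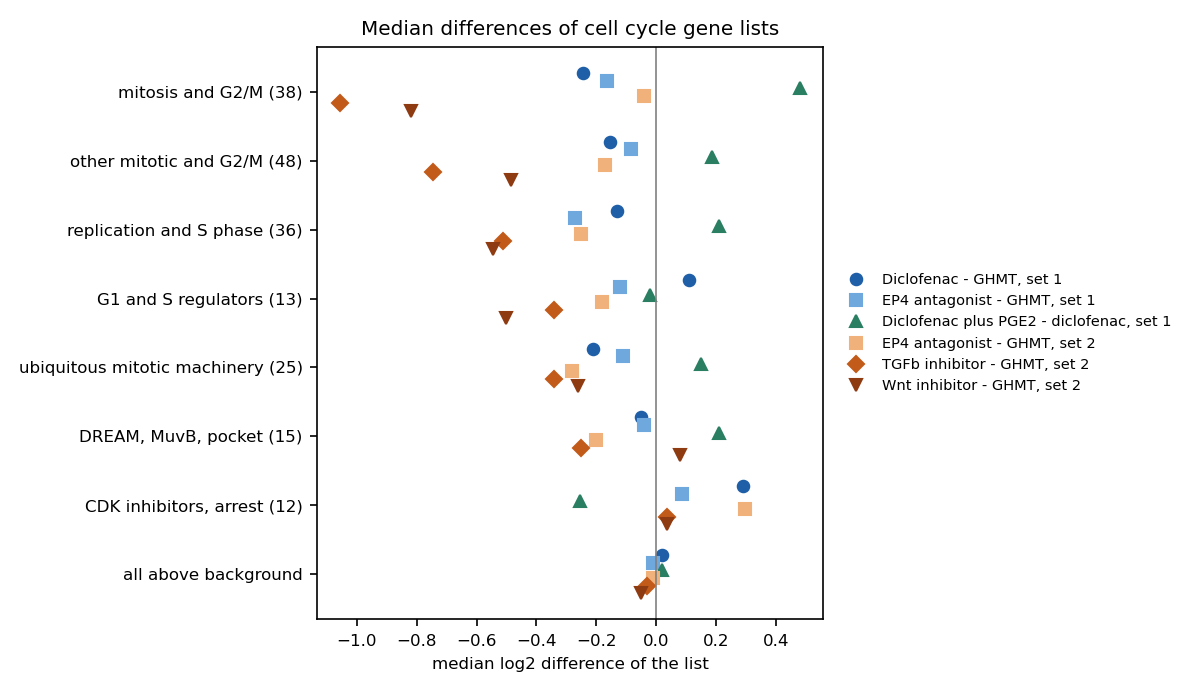
Median log2 difference of each gene list (rows, number of genes measured in brackets) in 6 contrasts between 2 arrays of the same TTF set; the bottom row is all clusters above background. For the TGFb inhibitor (diamonds) the medians run from -1.05 for the mitosis and G2/M genes to 0.04 for the CDK inhibitors and arrest genes. The row of all clusters stays near 0.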

How the data were processed

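Total RNA of 8 TTF cultures was measured on Clariom S Mouse arrays. The deposited values are log2 expression values that the authors normalized by SST-RMA, per the series' design text, in Affymetrix Expression Console 1.4, per the submitters' processing notes. A joint normalization of both sets is not stated. Of 28846 rows, 6640 controls were left out, and 22206 transcript clusters were tested; 19572 carried a symbol. The cluster with the highest mean stood for a symbol. Replicated comparisons used limma 3.58.1 in R 4.3.3 (lmFit, eBayes, two-sided, Benjamini-Hochberg over all clusters, threshold 0.05), the TTF set being a fixed block. Tested on simulated data with known changes of 2 on the log2 scale, these fits recovered most of them. Such changes are larger than any member's difference in these fits, and recovery of smaller ones was not tested. The fits of 2 arrays against 2 made more false calls than the threshold states. The titles attach the set number to the fibroblasts, and same-set arrays deviated together (GHMT against EP4 antagonist, r = 0.724 across clusters). Independence of the replicates is not stated in the labels; p-values therefore cover only the spread among these arrays, which may be technical. Other contrasts are 1 array minus 1 within a set, called at 2-fold; a fold with the lower array at background is given as at least its value against the background level, a rule chosen after seeing the data. Alternatives were no block, quantile normalization, a trended robust prior, a background filter, a 1.5-fold threshold, the mean of a symbol's clusters and leaving out each array. Values in every array were given for 15 fixed members, except the unmatched Ccnb1 and Foxm1, and for the 3 largest and 3 smallest differences of each comparison. Members and lists were chosen with earlier results of these data known.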

Additional observations from a re-analysis of the deposited data

Results flagged for a closer look

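The EP4 antagonist difference from GHMT had opposite signs in the TTF sets, by at least 0.3 on the log2 scale in each, for 4 of 38 members (10.5%) and 7.34% of all clusters. Each set gives 1 array against 1, so the difference between the sets was not tested. Kif4, the chromosome-bound kinesin, differed by 0.49 in set 1 and by -0.59 in set 2, a gap of -1.08. Dlgap5, which stabilises kinetochore fibres, went the other way, at -0.31 in set 1 and 0.82 in set 2, a gap of 1.13. Ttk, the checkpoint kinase, was at -0.48 and 0.34, a gap of 0.82, where the set 1 value with the antagonist lay at background. Cdc25c, the phosphatase of Cdk1, was at 0.41 and -0.87, a gap of -1.28, but lay above background only with GHMT in set 2, so its set 1 direction cannot be read. In all, 16 of 38 members had opposite signs in the sets (47.4% of all clusters did), 17 were lower in both (26.2%) and 5 higher in both (23.9%), so the share with opposite signs lies near that of all clusters.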

How the results depend on the processing

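Pairing by TTF set changed no call among the members. With no replicate block, 0 members passed in the EP4 antagonist comparison (median -0.14) and in the inhibited against active comparison (median -0.22), as with it. Leaving the treatment term out of the set comparison kept 7 members higher. Over all clusters, the EP4 antagonist comparison called 0 in the fit reported and without the block, 1 with the background filter, 8 with the trended prior and 31 after quantile normalization; the inhibited against active comparison called 84, 143 with the trended prior, 0 without the block, and 0 to 192 when single arrays were left out. No member was among the calls of the EP4 antagonist comparison. After quantile normalization the set comparison had a member median of 0.14, 1 member lower and Nek2 at -0.043; the cause was not tested. With 1.5-fold as the size that counts, members lower and higher were 7 and 1 with diclofenac (5.41% and 5.46% of all clusters), 3 and 1 with the EP4 antagonist in set 1 (5.36% and 5.01%), 6 and 1 in set 2 (6.63% and 6.18%), 0 and 10 for diclofenac plus PGE2 against GHMT (5.42% and 5.04%), 1 and 16 against diclofenac (5.48% and 4.95%), 34 and 0 with the TGFb inhibitor (8.26% each) and 31 and 0 with the Wnt inhibitor (8.15% and 8.54%). After quantile normalization 5 members were 2-fold higher for diclofenac plus PGE2 against diclofenac. When single arrays were left out, the EP4 antagonist median ran from -0.16 to -0.04, Cdk1 from -0.18 to 0.13 and Cdc20 from -0.03 to 0.09. In the inhibited against active comparison members called lower ran from 0 to 1, Incenp from -0.22 to 0.34 and Spc25 from -0.13 to 0.13. In the set comparison the median ran from 0.32 to 0.36, Kif2c from -0.19 to 0.09 and Nek2 from -0.13 to 0.21. The single-array contrasts of set 2 rest on 1 GHMT array, and 6 members lie at background with either inhibitor, where a fold is only a bound.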

Other observations

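A list of CDK inhibitors and arrest-related genes was read beside the mitotic genes. Not all of its genes encode proteins that hold cells out of the cycle, Mdm2 being one that does not. Of 12 measured, 8 were higher with diclofenac than with GHMT in set 1 (47.9% of all clusters), with a median of 0.29. When PGE2 was added to diclofenac, 7 were lower (48.4% of all clusters), with a median of -0.26. For these contrasts 10 of the 12 lay above background in at least 1 array. Cdkn1a, which encodes p21, was higher by 0.65 with diclofenac and with the EP4 antagonist in set 1 and by 0.73 with the EP4 antagonist in set 2, and differed by -0.51 between diclofenac plus PGE2 and diclofenac. With the TGFb and Wnt inhibitors, where the mitotic genes differed most from GHMT, the median of the arrest genes was 0.04 in each case. Of the 12, 8 and 6 were higher, beside 48.4% and 47.6% of all clusters. Gadd45a, a stress-induced growth arrest gene, was higher by 0.98 and 0.69 with these inhibitors. Cdkn1b, which encodes p27, differed by -0.53 with diclofenac, by -0.63 with the EP4 antagonist in set 1 and by -1.55 in set 2. Cdkn2a, which encodes p16 and p19ARF, differed by 1.24 with the EP4 antagonist in set 2 and was at least 1.71-fold lower with the Wnt inhibitor, where it lay at background. These 4 genes were chosen after their values were seen. In the replicated EP4 antagonist comparison 9 of 12 were higher (48.1% of all clusters), 3 were lower (51.0%) and 0 passed (limma, adjusted over all clusters). At an unadjusted p under 0.05, Cdkn1a was higher by 0.69 and Cdkn1b differed by -1.09, with adjusted p of 0.780 and 0.743 in limma.

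The DREAM and pocket protein list covers the complex that silences mitotic genes in resting cells. It also holds other genes, among them the NF-Y genes Nfya, Nfyb and Nfyc. Its 15 genes had medians of -0.25 with the TGFb inhibitor and 0.08 with the Wnt inhibitor, with 0 of them 2-fold apart in either contrast.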
